A study of Mus musculus with 2 samples.

Results

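The genes examined were 10 members of the Notch pathway, which were the receptors *Notch1*, *Notch2*, *Notch3* and *Notch4*, the ligands *Jag1*, *Jag2* and *Dll4*, and the target genes *Hes1*, *Hey1* and *Nrarp*. They were chosen by name for their role in the pathway, with earlier results of these data known. All 10 were found among the 19320 features of the deposited single-cell table. The table holds dissociated prostate cells of hARtg-Osr1Cre mice, written in the study as R26 mTmG/hAR:Osr1 Cre/+ on a mixed C57BL/6 and 129S1/SvImJ background. In these mice Cre recombinase made from the *Osr1* gene switches on a human androgen receptor transgene (hARtg) and, on the other *Rosa26* allele, the membrane green fluorescent protein mGFP. The features named ARQ and EGFP were taken, from their names, as hARtg and mGFP. The samples were 1 prostatic intraepithelial neoplasia (PIN) and 1 prostatic adenocarcinoma (PCa), the PCa from older mice, with 1 library each. Both carried the transgene and the reporter, so there was no tissue without hARtg to compare with, and the number of mice behind each library is not given in the sources used here. Cell barcodes end in 1 or 2, and no label ties an ending to PIN or to PCa. The cells are therefore called barcode set 1 and barcode set 2, and no value below is assigned to a tissue.

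In Notch signalling a ligand on one cell binds a receptor on its neighbour, the receptor is cut by ADAM proteases and then by gamma-secretase, and its freed intracellular part enters the nucleus and joins the DNA-binding protein RBPJ to switch on targets such as *Hes1*, *Hey1* and *Nrarp*. In stratified and glandular epithelia the pathway is known for its part in basal and luminal fates. In blood vessels Dll4, Notch1 and Notch4 act in endothelium and Notch3 in smooth muscle and pericytes, which are together called mural cells.

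After doublet removal 6182 cells of set 1 and 9227 cells of set 2 were kept, with medians before removal of 17235 and 14824.5 unique molecular identifiers (UMIs) per cell. The sets shared 67 barcode sequences. Clusters were named only from fixed marker lists, with the 10 genes and the rest of the pathway kept out of the clustering. The classes in set 1 and set 2 held 1697 and 364 basal-like, 1754 and 7724 luminal-like, 1368 and 247 proximal-like (proximal or urethral luminal), 43 and 170 endothelium-like, 197 and 360 fibroblast-like, 5 and 88 mural-like, and 910 and 256 leukocyte-like cells. The 5 mural-like cells of set 1 were too few for a level. The 11 endothelial markers summed to 11630 and 10019 UMIs per 1000000 UMIs (CPM) in endothelium-like cells and to 14.0 and 18.6 CPM in luminal-like cells. The luminal-like and proximal-like labels were less sharp. Luminal-like clusters 0, 2, 3 and 7, with 3243, 1583, 1691 and 755 cells of set 2, had 0 luminal markers among their 10 leading genes, and clusters 5, 9 and 10 had 1, 3 and 3. The 5 seminal vesicle markers summed to 0.318 CPM (set 1) and 1220 CPM (set 2) in luminal-like cells. The size of the proximal-like class in set 2 depended on the clustering. Without integration, set 2 clusters of 1802 and 1130 cells, led by *Svs5* and *Defa22*, were also named proximal-like, and at resolution 1.0 so were clusters with 391 and 627 cells of set 2. In the 1368 and 247 proximal-like cells counted above, the 12 luminal markers summed to 20977 and 20236 CPM, beside 24963 and 15194 CPM for the 9 proximal markers. Of the proximal-like cells, 86.8% in set 1 and 70.0% in set 2 formed 1 cluster led by *Krt6a* and *Clu* (cluster 4), and the others formed a cluster led by *Msln* with *Wfdc2* and *Krt4* among its leading genes (cluster 12). EGFP, which leukocytes should lack, was at 104 CPM (set 1) and 898 CPM (set 2) in leukocyte-like cells, beside 1436 and 10083 CPM in luminal-like cells. The 13 leukocyte markers, which include the class II genes *Cd74* and *H2-Aa*, summed to between 1568 and 5792 CPM in the basal-like, luminal-like, proximal-like, endothelium-like and fibroblast-like cells of set 1 and to between 23.9 and 91.4 CPM in the same classes of set 2. In the endothelium-like cells of set 1, *C1qa*, *C1qb*, *Cd79a*, *Tyrobp* and *Fcer1g* of this list were at 0.

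The 10 genes lie on 5 chromosomes. On GRCm38.p6, the build called mm10 in the submitters' processing notes, RefSeq places *Nrarp* at chr2:25180758-25183339, *Notch1* at chr2:26457902-26503822, *Dll4* at chr2:119325784-119335666 and *Jag1* at chr2:137081451-137116520. *Hey1* is at chr3:8663359-8667038, *Notch2* at chr3:98013538-98150367, *Jag2* at chr12:112907803-112929812, *Hes1* at chr16:30065357-30067796, *Notch3* at chr17:32120820-32166896 and *Notch4* at chr17:34564286-34588543. Promoter windows from RefSeq, 250 bases before to 50 bases after a transcript start, were found for 8 of the 10 genes, with *Hes1* and *Hey1* not among them. The core of the RBPJ motif, GTGGGAA, was searched on both strands. It was found in 0 of these 8 windows and in 2097 of all 32851 windows (6.38%), which says only that these letters are absent from these windows. The upstream 250 bases are shown for *Dll4*, *Notch3* and *Nrarp*, the ligand highest in endothelium-like cells, the receptor highest in mural-like cells and the 1 target with a window, in lower case since no motif was found to mark. They lie at chr2:119325534-119325783 on the plus strand, at chr17:32166891-32167140 on the minus strand and at chr2:25180508-25180757 on the plus strand, each written 5′ to 3′ along the gene.
Dll4: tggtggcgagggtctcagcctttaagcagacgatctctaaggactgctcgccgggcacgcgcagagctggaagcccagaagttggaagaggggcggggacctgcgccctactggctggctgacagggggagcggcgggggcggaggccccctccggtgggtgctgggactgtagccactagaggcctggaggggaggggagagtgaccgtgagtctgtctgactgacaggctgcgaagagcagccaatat
Notch3: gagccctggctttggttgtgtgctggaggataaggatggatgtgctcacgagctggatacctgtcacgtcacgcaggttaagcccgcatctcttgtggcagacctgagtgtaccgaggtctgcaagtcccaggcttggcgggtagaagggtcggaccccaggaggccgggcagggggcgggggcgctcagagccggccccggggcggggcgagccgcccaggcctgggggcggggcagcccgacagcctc
Nrarp: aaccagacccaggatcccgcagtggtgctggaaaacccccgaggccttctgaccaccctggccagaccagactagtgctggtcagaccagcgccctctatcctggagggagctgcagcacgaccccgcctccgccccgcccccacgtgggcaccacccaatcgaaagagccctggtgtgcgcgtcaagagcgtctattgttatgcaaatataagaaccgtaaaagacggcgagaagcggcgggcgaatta

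Levels are given as CPM of the UMIs summed over all cells of a class in a set, with an exact 95% Poisson interval in brackets. There was 1 library per group, so intervals cover counting error only and no test between groups was possible. Reads come from the 3′ end of transcripts, so levels are compared between classes for 1 gene and not between genes.

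Among the receptors, *Notch1*, a receptor of epithelium and endothelium, was highest in endothelium-like cells of both sets, at 468 CPM (395 to 550) in set 1 and 343 CPM (317 to 369) in set 2. Basal-like cells came next, with 133 CPM (128 to 138) and 102 CPM (90.03 to 115). Mural-like cells of set 2 had 64.9 CPM. The other named classes lay between 35.0 and 56.7 CPM in set 1 and between 24.5 and 35.9 CPM in set 2, and in set 2 the intervals of proximal-like, fibroblast-like and leukocyte-like cells overlapped. After each cell was thinned to 3000 UMIs, a *Notch1* UMI was seen in 73.7% of endothelium-like, 29.99% of basal-like and 9.98% of luminal-like cells of set 1. The same shares in set 2 were 58.6%, 23.5% and 6.72%, and leukocyte-like cells had 10.9% and 12.1%. Without thinning, at medians of 10845 UMIs per basal-like and 29130.5 per luminal-like cell, set 1 gave 66.8% of basal-like and 55.9% of luminal-like cells.

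*Notch2* had another distribution. In set 1 its levels went down from basal-like (62.6 CPM, 59.4 to 66.0) to proximal-like (28.1 CPM) and luminal-like cells (18.4 CPM), and the same classes stood at 71.6 CPM (61.8 to 82.4), 30.02 CPM and 16.3 CPM in set 2. Endothelium-like cells held 1 *Notch2* UMI in set 1 and 10 in set 2, which is 3.23 CPM (0.0817 to 18.0) and 5.06 CPM (2.43 to 9.31), the lowest level of *Notch2* in each set. Leukocyte-like cells stood at 36.0 and 52.6 CPM, above luminal-like cells. The unnamed cluster of set 1, whose leading genes include *Rgs1*, *Cxcr6* and *Gzma*, had 103 CPM (82.7 to 127).

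*Notch3*, the receptor of vascular smooth muscle and pericytes, was highest in mural-like cells of set 2, where 225 UMIs gave 317 CPM (277 to 362). In the other classes it ranged from 0.608 to 7.09 CPM in set 2 and from 0 to 5.08 CPM in set 1, where endothelium-like cells held 0 UMIs, which allows up to 9.68 CPM at 3 UMIs. Leukocyte-like cells, which should lack it, had 2 UMIs in each set. The epithelium of set 1 held 164 *Notch3* UMIs in luminal-like and 152 in proximal-like cells, at 2.89 CPM (2.47 to 3.37) and 3.51 CPM (2.98 to 4.12), whereas basal-like cells had 0.857 CPM (0.516 to 1.34). *Notch4*, a receptor of endothelium, was at 64.5 CPM (39.4 to 99.6) in endothelium-like cells of set 1 from 20 UMIs and at 103 CPM (89.1 to 118) in set 2 from 203 UMIs. In basal-like, luminal-like and proximal-like cells it stayed at or under 0.459 CPM in both sets. Mural-like cells of set 2 had 22.6 CPM from 16 UMIs, and fibroblast-like cells of set 1 had 6.21 CPM from 11 UMIs.

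**Figure D1:**
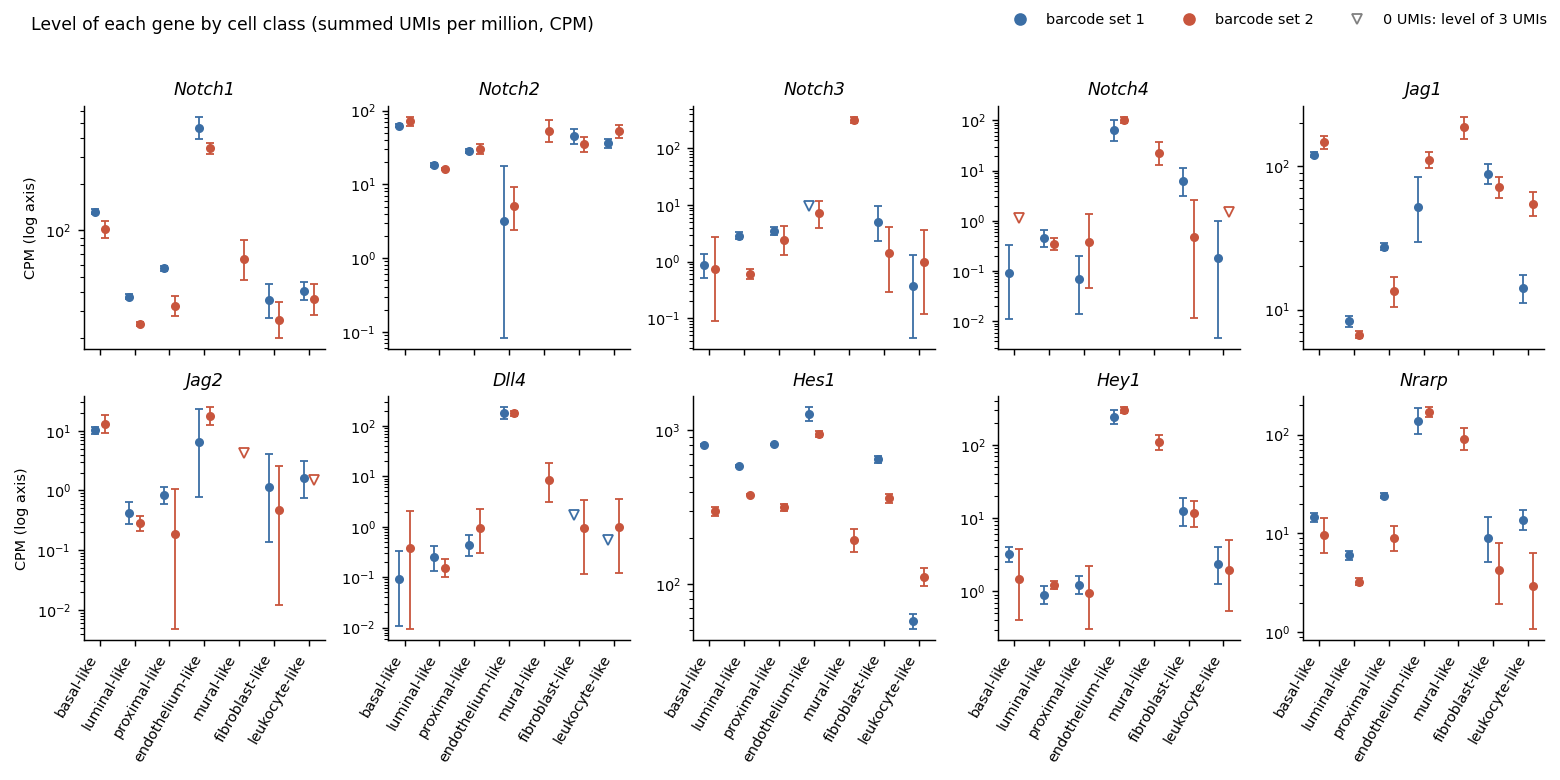
CPM of each of the 10 genes (log axis, a scale of its own for each gene) in 7 cell classes of barcode set 1 (blue) and set 2 (red), with exact 95% Poisson intervals for counting error. Open triangles mark classes with 0 UMIs at the level of 3 UMIs, and mural-like cells of set 1 (5 cells) are left out. *Dll4*, *Notch4* and *Hey1* peak in endothelium-like cells and *Notch3* in mural-like cells, while *Jag2* is high in basal-like and endothelium-like cells.

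Of the ligands, *Jag1*, a Serrate-type ligand, was at 120 CPM (116 to 125) in set 1 and 146 CPM (132 to 162) in set 2 in basal-like cells. Luminal-like cells had 8.29 CPM (7.56 to 9.08) and 6.70 CPM (6.32 to 7.11), the lowest level of all classes in each set. Stromal classes also carried it. Fibroblast-like cells had 88.1 and 71.4 CPM, mural-like cells of set 2 had 186 CPM (156 to 221), and endothelium-like cells had 51.6 CPM (29.5 to 83.8) and 111 CPM (96.6 to 127). Leukocyte-like cells had 14.1 and 54.5 CPM, and the C1q-expressing macrophage cluster among them had 24.1 and 64.3 CPM. In basal-like cells *Jag2*, the other Serrate-type ligand, was at 10.3 CPM (8.997 to 11.7) in set 1 and 13.04 CPM (9.09 to 18.1) in set 2. Luminal-like cells had 0.423 and 0.280 CPM. Endothelium-like cells held 2 *Jag2* UMIs in set 1 and 35 in set 2, at 6.45 CPM (0.781 to 23.3) and 17.7 CPM (12.3 to 24.6), so basal-like and endothelium-like intervals overlapped in both sets. *Dll4*, the Delta-type ligand of sprouting and arterial endothelium, was almost level in the endothelium-like cells of the sets, with 177 CPM (134 to 231) in set 1 and 176 CPM (158 to 195) in set 2. Mural-like cells had 8.46 CPM from 6 UMIs, and no other class exceeded 0.982 CPM.

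Of the targets, *Hes1*, a transcriptional repressor, was broadly expressed. In set 1 it was highest in endothelium-like cells, at 1277 CPM (1154 to 1409), and proximal-like, basal-like, fibroblast-like and luminal-like cells followed with 812, 802, 647 and 588 CPM. In set 2 endothelium-like cells again had the highest level, 952 CPM (909 to 996), and luminal-like, fibroblast-like, proximal-like and basal-like cells followed with 381, 362, 315 and 297 CPM. The proximal-like and basal-like intervals overlapped in both sets. Leukocyte-like cells had 57.4 and 111 CPM. *Hey1*, a repressor of the Hairy family used in vessels, was at 242 CPM (190 to 303) and 299 CPM (275 to 324) in endothelium-like cells and at 109 CPM (85.7 to 136) in mural-like cells of set 2. Fibroblast-like cells had 12.4 and 11.7 CPM, and basal-like, luminal-like and proximal-like cells lay between 0.900 and 3.204 CPM. *Nrarp*, a feedback inhibitor of Notch signalling, was at 139 CPM (100.4 to 187) and 169 CPM (151 to 188) in endothelium-like cells and at 90.3 CPM (69.5 to 115) in mural-like cells. Within the epithelium of set 1 its order was proximal-like (24.2 CPM), basal-like (14.6 CPM) and luminal-like (5.998 CPM). In set 2 the proximal-like and basal-like levels, 9.06 and 9.69 CPM, did not differ beyond their intervals and luminal-like cells had 3.25 CPM.

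Each gene's UMIs were also seen as shares by class. Endothelium-like cells made up 0.696% of the cells and 0.238% of all UMIs of set 1, and 1.84% and 1.08% in set 2. They held 61.1% and 89.2% of all *Dll4* UMIs, 31.7% and 72.2% of *Notch4* UMIs and 25.3% and 64.6% of *Hey1* UMIs. Mural-like cells, 0.954% of the cells and 0.388% of the UMIs of set 2, held 62.3% of its *Notch3* UMIs. Basal-like cells were 27.5% of the cells and 17.0% of the UMIs of set 1, and 3.94% and 1.47% in set 2. They held 75.5% and 29.4% of *Jag2* UMIs and 57.8% and 17.8% of *Jag1* UMIs. Luminal-like cells of set 2 held 92.1% of its *Hes1* UMIs, near the 91.8% of all its UMIs that these cells held.

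**Figure D2:**
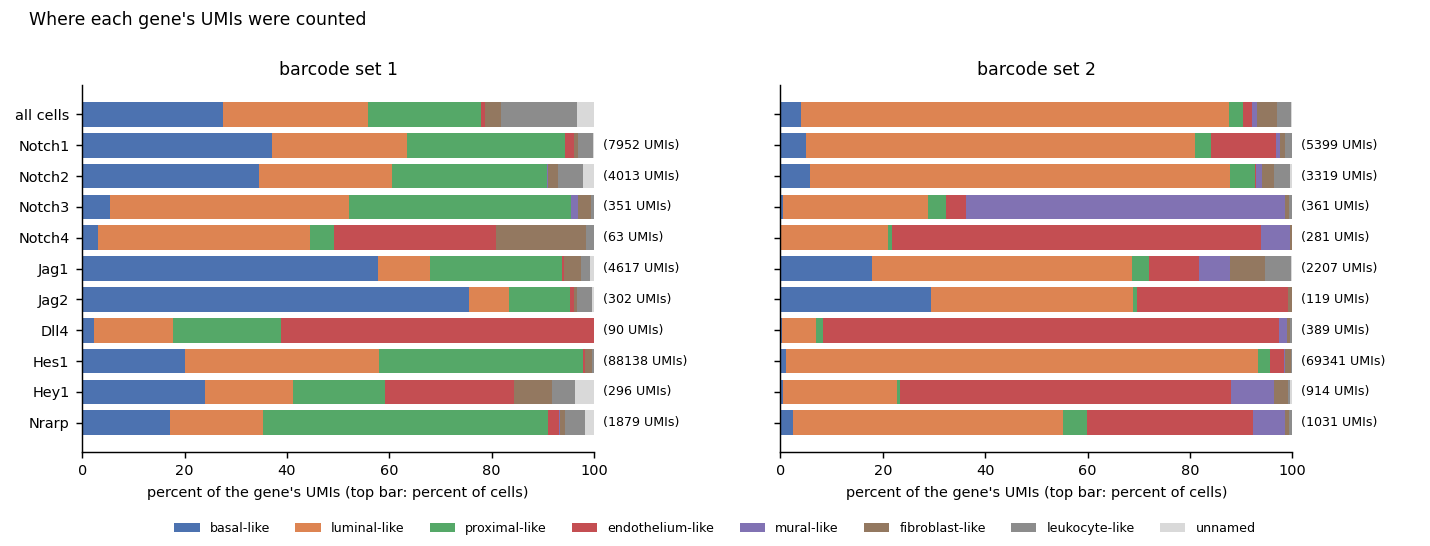
Percent of each gene's UMIs counted in each cell class, for barcode set 1 (left) and set 2 (right), with the percent of cells in each class as the top bar and each gene's UMI total at the right. Endothelium-like cells (red) take 89.2% of *Dll4* and 64.6% of *Hey1* UMIs of set 2 while forming 1.84% of its cells, and basal-like cells (dark blue) take 75.5% of *Jag2* UMIs of set 1.

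Basal-like and luminal-like cells were compared within each set as the ratio of their CPM. A feature was given a ratio if it had 20 UMIs over both sides and 10 CPM on the higher side, so a gene low in both classes could not enter, and it was called past the limit at 2-fold. A gene under 10 CPM on 1 side could enter only through the other side, so its direction was set by entry. In set 1, 6 of the 10 genes had a ratio and 5 were past 2-fold, all higher in basal-like cells, where 39.1% of the 7905 features with a ratio were past 2-fold in either direction. In set 2, 5 had a ratio and 4 were past 2-fold, again higher in basal-like cells, against 45.9% of 7831 features. *Jag1* and *Jag2* in both sets and *Nrarp* in set 1 were under 10 CPM in luminal-like cells, so they entered through the basal-like side alone. Of all features with a ratio, 13.04% (set 1) and 19.97% (set 2) were past 2-fold higher in basal-like cells. The median log2 ratio of the members with a ratio was 1.80 and 2.14, and that of all features −0.11 and −0.08. Since entry set part of it, the member median is given only as a description. *Jag2* had the widest ratio, 24.3-fold (log2 4.60) in set 1 and 46.5-fold (log2 5.54) in set 2. *Jag1* was 14.5-fold and 21.8-fold higher, *Notch1* 3.58-fold and 4.16-fold, and *Notch2* 3.40-fold and 4.40-fold. *Nrarp* was 2.43-fold higher in set 1 and had no ratio in set 2, since basal-like cells there had 9.69 CPM, just under the limit of 10. *Hes1* was the exception to this order, with a log2 ratio of 0.45 (0.42 to 0.47) in set 1 and −0.36 (−0.46 to −0.26) in set 2. *Notch3*, *Notch4*, *Dll4* and *Hey1* were too low in both classes for a ratio in either set. Counting cluster 4 as luminal-like, an alternative added after the values were seen, brought *Nrarp* to 0.21 in set 1. Fibroblast markers summed to 2521 CPM on the basal-like side and 135 CPM on the luminal-like side in set 1, and to 1163 and 220 CPM in set 2, and their part in these ratios was not tested.

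Proximal-like cells were compared with luminal-like cells in the same way. In set 1, 2 of the 5 genes with a ratio were past 2-fold, both higher, against 13.4% of all features in either direction and 5.37% higher. These 2, *Nrarp* and *Jag1*, were under 10 CPM in luminal-like cells. They entered through the proximal-like side alone, so their direction was set by entry, as was that of *Jag1* in set 2. *Nrarp* was 4.03-fold higher (log2 2.01, 1.83 to 2.19) and *Jag1* 3.32-fold higher (log2 1.73, 1.58 to 1.89), while *Notch1*, *Notch2* and *Hes1* had log2 ratios of 0.61, 0.61 and 0.46. Basal markers summed to 2193 CPM on the proximal-like side and 959 CPM on the luminal-like side in set 1, and to 556 and 74.5 CPM in set 2, and their part in these ratios was not tested. In set 2, 0 of 4 genes were past 2-fold, against 17.8% of features, and 4 were past it when cluster 4 was counted as luminal-like, with *Notch1*, *Notch2* and *Jag1* at 1.37, 1.21 and 2.15. *Notch1* stood at 0.40 with the classes as named, at −0.66 without integration and at −0.51 at resolution 1.0, so its direction turned with the clustering. With the classes as named, *Jag1* stood just under the limit at a log2 ratio of 0.9995 (0.63 to 1.35). *Hes1* again lay on the other side of luminal-like cells in set 2, at −0.27 (−0.34 to −0.20). The 2 proximal-like clusters differed from each other in set 2. Cluster 12 had 63.2 CPM *Notch1*, 29.9 CPM *Jag1* and 21.1 CPM *Nrarp* there, whereas cluster 4 had 20.4, 7.06 and 4.44 CPM. In set 1 the same genes stood at 63.7, 43.5 and 34.5 CPM in cluster 12 and at 55.7, 25.2 and 22.6 CPM in cluster 4.

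Endothelium-like cells were compared with all other cells of the set, where 48.0% of features were past 2-fold in each set. In set 1, 8 genes had a ratio, of which *Notch1*, *Notch4*, *Dll4*, *Hey1* and *Nrarp* were higher and *Notch2* was lower. *Jag1* and *Hes1* stayed under 2-fold there, at log2 ratios of 0.55 (−0.26 to 1.25) and 0.92 (0.78 to 1.06). In set 2, 9 genes had a ratio, of which 8 were higher and *Notch2* was lower. *Notch4*, *Dll4* and *Hey1* in both sets and *Jag2* and *Nrarp* in set 2 were under 10 CPM in the other cells. *Notch2* was under 10 CPM in endothelium-like cells of both sets. Each of these genes entered through 1 side alone, so its direction was set by entry. Of all features, 23.6% (set 1) and 28.2% (set 2) were past 2-fold higher and 24.4% and 19.8% lower. *Dll4* was the furthest from the other cells, with log2 ratios of 9.37 (8.73 to 10.0) and 9.56 (9.10 to 10.1), followed by *Notch4* with 7.61 and 7.89 and *Hey1* with 7.16 and 7.38. *Nrarp* had 3.30 and 5.45, *Notch1* 2.96 and 3.71, and *Notch2* −3.26 (−8.56 to −0.78) and −1.86 (−2.92 to −0.98). In set 2 *Jag2* reached 5.25 and *Jag1* 3.33, and *Hes1* 1.35 (1.28 to 1.42). *Notch3* had no ratio, at 0 UMIs and at 14 UMIs in endothelium-like cells. Mural markers summed to 25.8 CPM with 3 of 11 present in endothelium-like cells of set 1, and to 356 CPM with 8 of 11 present in set 2, where *Myh11*, *Cnn1* and *Actg2* were at 0.

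Mural-like cells of set 2 were past 2-fold against all other cells for 7 of the 8 genes with a ratio, all higher. Of all features 44.3% were past 2-fold in either direction and 26.5% higher. *Notch3*, *Notch4*, *Hey1* and *Nrarp* were under 10 CPM in the other cells. They entered through the mural-like side alone, so their direction was set by entry. *Notch3* had a log2 ratio of 8.73 (8.42 to 9.05), followed by *Hey1* with 4.56, *Nrarp* with 4.09, *Jag1* with 4.03 and *Notch4* with 3.95. *Notch2* and *Notch1* had 1.57 and 1.14, and *Hes1* was below the other cells at −0.98 (−1.23 to −0.74). *Dll4* and *Jag2* had no ratio, at 6 and 0 UMIs. These cells also carried markers of their neighbours. The 11 endothelial markers summed to 738 CPM with all 11 present, and the fibroblast markers to 6427 CPM with 8 of 9 present and *Dpt* at 0. The part of such cells in the levels of *Notch4*, *Hey1* and *Nrarp* was not tested. Fibroblast-like cells were past 2-fold for *Jag1* and *Hey1* alone in both sets, of 6 genes with a ratio in set 1 (40.2% of features) and 5 in set 2 (37.9%). Of all features 20.4% (set 1) and 23.3% (set 2) were past 2-fold higher. *Hey1* was under 10 CPM in the other cells of both sets, so its direction was set by entry. *Jag1* was 2.54-fold and 6.27-fold higher than in all other cells, and *Hey1* 5.84-fold and 2.38-fold higher. *Hes1* was level with the other cells in both sets, at −0.06 (−0.15 to 0.02) and −0.07 (−0.17 to 0.03). Mural markers summed to 4370 CPM (set 1) and 685 CPM (set 2) in fibroblast-like cells, with all 11 and 10 of 11 present (*Lmod1* at 0 in set 2), and their part in these ratios was not tested. Taken as the mean of per-cell CPM, the log2 ratio of *Jag1* in set 1 was 0.70 and that of *Hey1* in set 2 was 0.62, both under 2-fold.

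**Figure D3:**
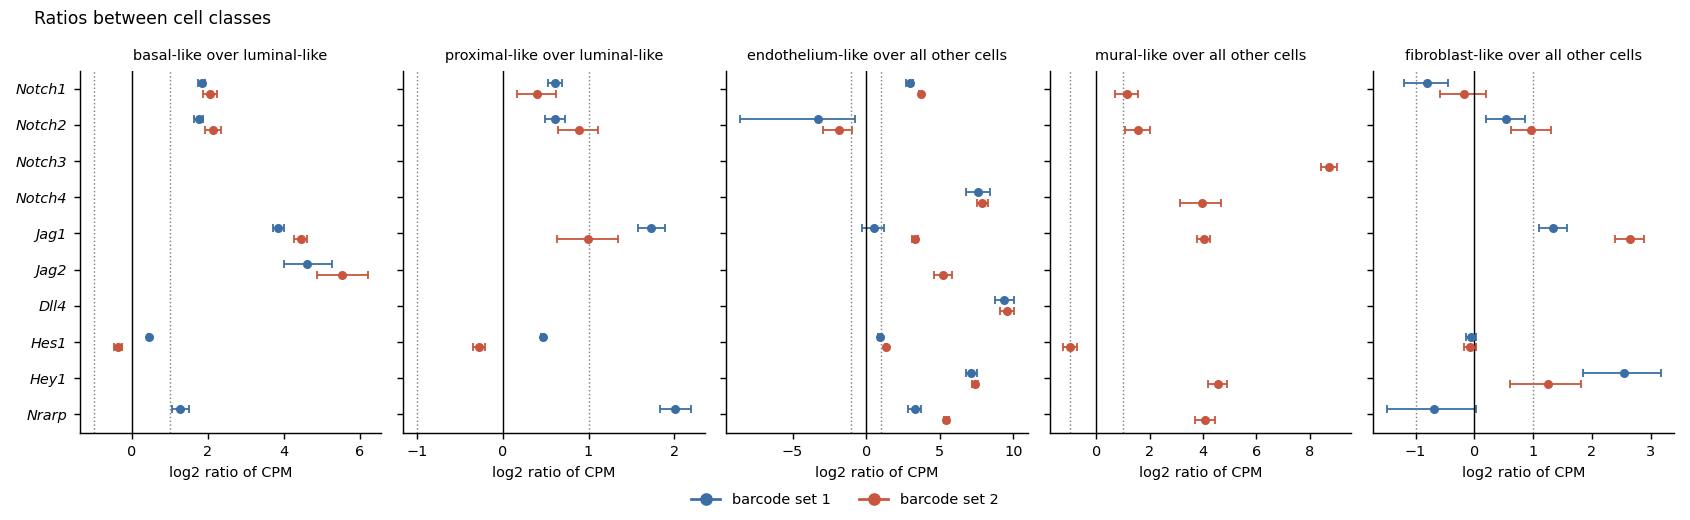
Log2 ratio of CPM between cell classes (x axis, a scale of its own for each panel) for each gene with a ratio (y axis), in barcode set 1 (blue) and set 2 (red), with 95% intervals for counting error and dotted lines at 2-fold. *Jag1* and *Jag2* are furthest to the right in the basal-like panel, *Dll4*, *Notch4* and *Hey1* in the endothelium-like panel and *Notch3* in the mural-like panel, and *Notch2* is lower in endothelium-like cells.

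Cells were then compared by their EGFP level, the mark left by recombination. EGFP-high cells lay above the 95th percentile of leukocyte-like cells of the same set, which was 3.41 EGFP UMIs per 10000 UMIs in set 1 and 26.6 in set 2, and EGFP-low cells lay at or below their median, which was 0 and 3.19. The hARtg feature followed this split, with 743 against 108 CPM between EGFP-high and EGFP-low basal-like cells of set 1 and 815 against 350 CPM in set 2. In basal-like cells 0 of the 6 genes with a ratio were past 2-fold in set 1 (5.33% of features) and 0 of 6 in set 2 (6.63%). *Jag1* had the largest difference among them. In set 1 the 509 EGFP-high cells had 80.7 CPM and the 861 EGFP-low cells 140.3 CPM, a log2 ratio of −0.80 (−0.94 to −0.66). In set 2 the 164 EGFP-high cells had 134 CPM and the 96 EGFP-low cells 190.5 CPM, a log2 ratio of −0.51 (−0.84 to −0.18). The basal markers moved with it, since they summed to 9979 against 17767 CPM between EGFP-high and EGFP-low cells in set 1, and to 9606 against 12155 CPM in set 2. Their part in the *Jag1* ratio was not tested. *Notch1*, *Notch2*, *Hes1* and *Nrarp* had log2 ratios between −0.27 and −0.17 in set 1 and between −0.08 and 0.20 in set 2, where all 4 intervals included 0. *Jag2* stood at 0.44 (−0.01 to 0.88) and 0.28 (−0.98 to 1.68).

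In luminal-like cells 0 of 3 genes were past 2-fold in set 1 (6.22% of features) and 0 of 4 in set 2 (27.4%). *Notch2* was higher in EGFP-high cells of both sets, at 23.9 against 13.04 CPM in set 1 (log2 0.87, 0.65 to 1.10) and 16.4 against 10.98 CPM in set 2 (0.58, 0.15 to 1.04). *Hes1* was lower in both, at 476 against 655 CPM (−0.46, −0.50 to −0.42) and 379 against 447 CPM (−0.24, −0.31 to −0.17). *Notch1* was at 42.9 against 34.3 CPM in set 1 (0.32, 0.17 to 0.48) and 23.8 against 35.4 CPM in set 2 (−0.57, −0.81 to −0.32), and *Jag1*, with a ratio in set 2 alone, was at 6.56 against 10.3 CPM (−0.64, −1.09 to −0.16). *Jag1* entered through the EGFP-low side alone, so its direction was set by entry.

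The 2 sides of the luminal-like comparison were made of different clusters. The *Tgm4*-expressing cluster 5 formed 51.5% of EGFP-low and 8.84% of EGFP-high luminal-like cells of set 1, and 75.3% and 0.999% in set 2, whereas cluster 2 formed 3.86% and 41.4% in set 1, and the cluster led by defensin genes (cluster 0) 0% and 43.6% in set 2. Cluster 2 joined unlike cells of the sets, with *Svs5*, its leading gene, at 0 UMIs in set 1 and 1280 CPM in set 2 and *Msmb* at 6730 and 4.34 CPM. The luminal and basal markers also moved with EGFP. Luminal markers summed to 25763 against 41190 CPM in set 1 and 19225 against 67452 CPM in set 2 between EGFP-high and EGFP-low cells, and basal markers to 1427 against 707 CPM and 52.6 against 657 CPM. Their part in the ratios of *Notch1* and *Jag1* was not tested. Among luminal-like clusters of set 1 with 50 or more cells, cluster 5 had the highest *Hes1* level, 855 CPM, and the lowest *Notch2* level, 8.66 CPM. Ratios were therefore also taken within single clusters, a step added after the class ratios were seen. In the *Msmb*-expressing cluster 10 of set 1, EGFP-high cells had 31.0 against 14.8 CPM *Notch1* (log2 1.06, 0.62 to 1.51), 21.3 against 7.42 CPM *Notch2* (1.52, 0.93 to 2.14) and 415 against 285 CPM *Hes1* (0.54, 0.43 to 0.65). In the *Sbp*-expressing cluster 9 of set 1 *Notch1* and *Notch2* were higher by 0.99 (0.65 to 1.33) and 0.59 (0.23 to 0.94) and *Hes1* was at −0.41 (−0.50 to −0.32). In cluster 5 of set 2 *Notch2* was at 1.12 (0.26 to 2.00), and *Notch1* and *Hes1* were at 0.07 (−0.33 to 0.48) and −0.01 (−0.14 to 0.11). *Notch2* was higher in EGFP-high cells in each of the 3 luminal-like clusters with 50 cells on both sides, while *Hes1* had no common direction. In cluster 10 of set 1 and cluster 5 of set 2, EGFP-low cells had 7.42 and 6.37 CPM *Notch2*, under the limit of 10. It entered there through the EGFP-high side alone, so its direction was set by entry, and only cluster 9 could have gone either way. The *Notch2* value in cluster 5 of set 2 rests on 29 against 21 UMIs. No share of all features past 2-fold was taken within single clusters, here or between the sets, so these ratios stand without that background.

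In proximal-like cells of set 1, 0 of 5 genes were past 2-fold (2.23% of features). *Jag1* was at 38.7 CPM in 99 EGFP-high and 23.5 CPM in 726 EGFP-low cells, a log2 ratio of 0.72 (0.44 to 0.99), and within cluster 4 at 33.2 against 21.1 CPM (0.65, 0.32 to 0.98). Its direction was opposite to that in basal-like cells. Fibroblast markers summed to 307 against 65.6 CPM and basal markers to 2810 against 1946 CPM between these EGFP-high and EGFP-low cells, and their part in the *Jag1* ratio was not tested. *Notch1*, *Notch2* and *Nrarp* lay between 0.18 and 0.24 and *Hes1* at −0.09 (−0.15 to −0.03). Set 2 held 10 EGFP-low proximal-like cells, too few for this comparison.

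**Figure D4:**
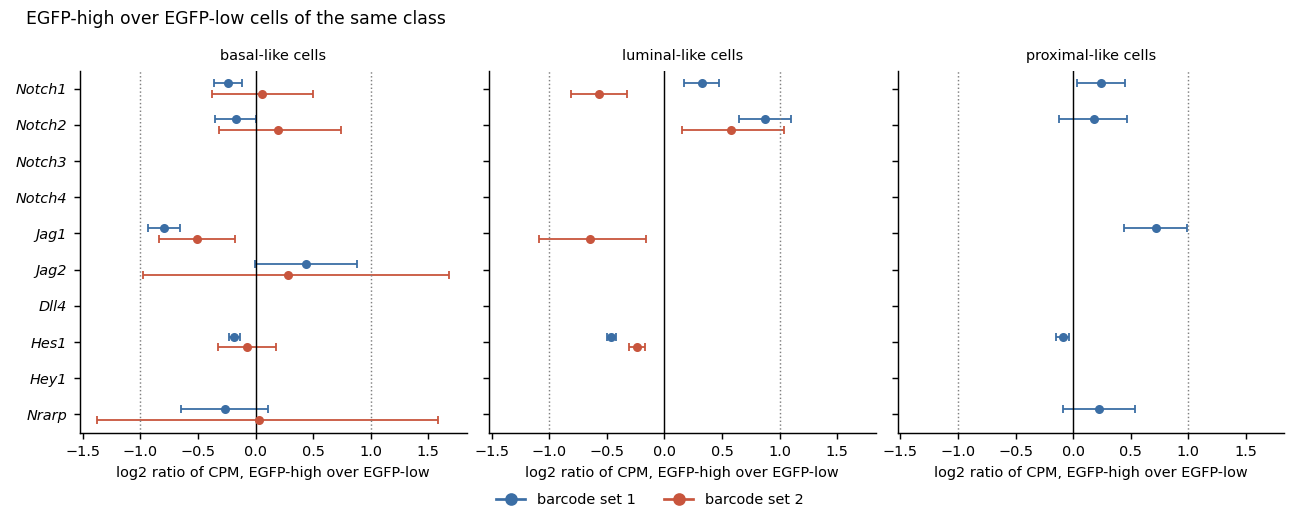
Log2 ratio of CPM of EGFP-high over EGFP-low cells (x axis) within basal-like, luminal-like and proximal-like cells for each gene with a ratio, in barcode set 1 (blue) and set 2 (red), with 95% intervals for counting error and dotted lines at 2-fold. No gene is past 2-fold, *Jag1* lies left of 0 in basal-like cells of both sets, and *Notch1* lies on opposite sides of 0 in luminal-like cells of the 2 sets.

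The barcode sets were compared within each class. Library and tissue are the same split here and cannot be told apart. In basal-like cells *Hes1* alone of 6 genes was past 2-fold (9.59% of features), at 297 CPM in set 2 and 802 CPM in set 1, a log2 ratio of −1.43 (−1.54 to −1.33). *Notch1* was at −0.38 (−0.57 to −0.20), *Jag1* at 0.28 (0.13 to 0.44), and *Notch2*, *Jag2* and *Nrarp* at 0.19, 0.34 and −0.59, with intervals that included 0 for *Notch2* and *Jag2*. Basal-like *Nrarp* was under 10 CPM in set 2, so it entered through set 1 alone. In luminal-like cells 0 of 3 genes were past 2-fold (25.6% of features), with *Notch1*, *Notch2* and *Hes1* at −0.60, −0.18 and −0.63. In proximal-like cells 3 of 5 genes were past 2-fold (16.8% of features in either direction and 8.08% lower), all lower in set 2. Of these, *Nrarp* was under 10 CPM in set 2, so it entered through set 1 alone and its direction was set by entry. *Nrarp* was at 9.06 against 24.2 CPM (−1.42, −1.87 to −0.999), *Hes1* at 315 against 812 CPM (−1.36, −1.44 to −1.29) and *Jag1* at 13.4 against 27.5 CPM (−1.04, −1.41 to −0.69), while *Notch1* was at −0.81 and *Notch2* at 0.10 (−0.15 to 0.34). In fibroblast-like cells 0 of 5 genes were past 2-fold (15.3% of features), and *Hes1* was at −0.84 (−0.97 to −0.70). In endothelium-like cells 2 of 8 genes were past 2-fold (22.4% of features), *Jag1* at 1.10 (0.37 to 1.94) and *Jag2* at 1.46 (−0.50 to 4.56), the latter from 2 UMIs in set 1. *Jag2* was under 10 CPM in set 1, so it entered through set 2 alone. *Dll4* was level between the sets there, at −0.01 (−0.43 to 0.42), and *Hes1* at −0.42 (−0.58 to −0.26).

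*Hes1* was lower in set 2 in basal-like, luminal-like, proximal-like, endothelium-like and fibroblast-like cells, and higher in leukocyte-like cells, at 111 CPM against 57.4 CPM, although the C1q-expressing cluster among them had 98.8 CPM in set 2 and 112 CPM in set 1. Median UMIs per cell and mitochondrial shares moved with the sets. Basal-like cells had medians of 5509 UMIs and 4.50% mitochondrial UMIs in set 2 and 10845 UMIs and 3.37% in set 1, and proximal-like cells had 17271 UMIs and 5.92% against 28594 UMIs and 3.51%. Their part in the *Hes1* values was not tested. The sums of leukocyte markers given above also separate the sets in these classes. Cluster makeup also differed, since clusters 0, 2 and 3 formed 41.99%, 20.49% and 21.9% of luminal-like cells of set 2 and clusters 5, 9 and 10 formed 34.8%, 22.8% and 23.8% of those of set 1. Within clusters *Hes1* of set 2 over set 1 was −0.97 (−1.03 to −0.92) in cluster 5, −0.56 in cluster 9, −0.28 in cluster 2 and 0.21 (0.11 to 0.31) in cluster 3. Cluster 3 also joined unlike cells, since its 51 cells of set 1 had *Msmb* at 31571 CPM and *Mt4* at 0 UMIs, against 35.2 and 237 CPM in set 2. *Notch1* was −1.22 (−1.40 to −1.03) in cluster 2, where the sides are the unlike cells described above, −0.38 (−0.74 to −0.04) in cluster 9 and within 0.15 of 0 in clusters 3 and 5. Without integration, a luminal-like cluster with *Tgm4* among its leading genes held 570 cells of set 1 and 23 of set 2. Another such cluster held 3 and 231. Whether the *Tgm4*-expressing cluster 5 joined unlike cells of the sets was not tested. *Jag1* was 1.07 (0.60 to 1.54) in cluster 5, at 10.6 against 5.04 CPM. It entered there through set 2 alone, so its direction was set by entry. In the proximal-like clusters *Hes1* was −1.47 (−1.56 to −1.39) in cluster 4 and −1.12 (−1.25 to −0.99) in cluster 12. *Nrarp*, *Jag1* and *Notch1* were −2.35, −1.83 and −1.45 in cluster 4 and −0.71, −0.54 and −0.01 in cluster 12, so *Nrarp* and *Jag1* were under 2-fold in cluster 12 alone. In cluster 4 these 2 genes, at 4.44 and 7.06 CPM in set 2, entered through set 1 alone. Cluster 4 held 1188 cells of set 1 and 173 of set 2. Without integration the cluster led by *Krt6a* and *Clu* held 1187 and 9. Whether cluster 4 joined unlike cells of the sets was not tested. With doublets kept the *Jag1* ratio of the whole proximal-like class was −0.995. In endothelium-like cells the *Jag1* ratio was 0.89 with doublets kept and 0.69 with every cell weighing the same, both under 2-fold.

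**Figure D5:**
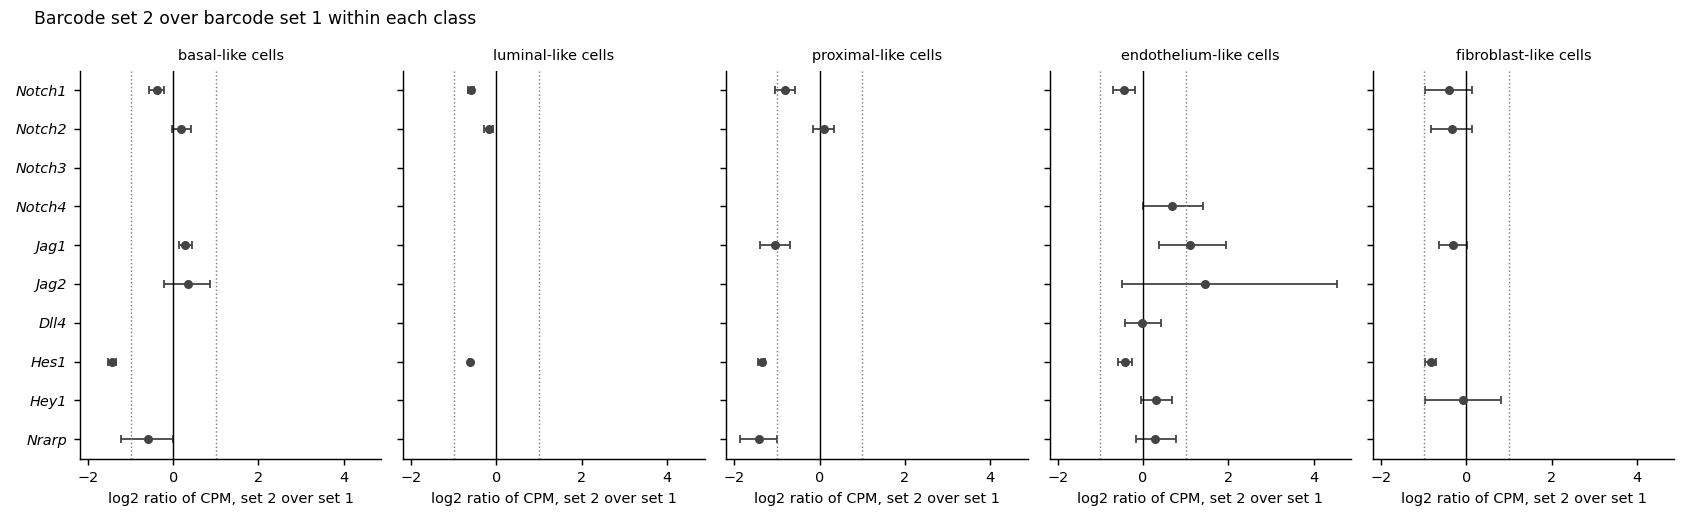
Log2 ratio of CPM of barcode set 2 over set 1 (x axis) within 5 cell classes for each gene with a ratio (y axis), with 95% intervals for counting error and dotted lines at 2-fold. *Hes1* lies left of 0 in all 5 classes and past 2-fold in basal-like and proximal-like cells, and *Jag1* lies right of 0 in endothelium-like and left of it in proximal-like cells.

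The rest of the pathway was read from a list of 40 genes. It was made of 20 other ligands and modulators, 9 genes of receptor cleavage, 5 nuclear genes and 6 other genes of the *Hes* and *Hey* families. The limits for a ratio were the same, so a gene under 10 CPM on 1 side had its direction set by entry. Between basal-like and luminal-like cells 5 of 21 genes with a ratio were past 2-fold higher and 4 lower in set 1, and 4 of 21 higher and 5 lower in set 2. Over all features 13.04% were higher and 26.0% lower in set 1, and 19.97% and 25.9% in set 2. Genes past 2-fold in the same direction in both sets were *Dlk2*, a Delta-like membrane protein, which was higher in basal-like cells (20.49 against 0.459 CPM in set 1 and 30.2 against 0.161 CPM in set 2), and *Psen2*, *Aph1a* and *Psenen*, subunits of gamma-secretase, and *Hes6*, which were lower. *Psenen* was at 58.2 against 133 CPM and 53.7 against 178 CPM, and *Hes6* at 1.81 against 33.5 CPM and 14.9 against 70.98 CPM. In proximal-like over luminal-like cells the ubiquitin ligase *Neurl1a*, which acts on ligands, was higher in both sets, at log2 ratios of 2.62 and 4.17, and *Hes6* was lower, at −1.52 and −1.49. In endothelium-like cells *Mfng*, a fringe enzyme that adds sugar to receptors, was at 96.8 CPM in set 1 and 144 CPM in set 2 (log2 6.20 and 8.29 over the other cells). *Maml2*, a nuclear coactivator, the ligand *Dll1*, *Furin*, *Adam17* and *Numb* were also higher and *Hes6* was lower in both sets, out of 23 genes with a ratio, of which 8 were higher and 1 lower in set 1 and 11 and 3 in set 2 (all features 23.6% and 24.4%, and 28.2% and 19.8%). In fibroblast-like cells *Numbl*, *Dtx3*, *Mib2*, *Maml2* and *Adam17* were higher in both sets and *Hes6* lower. Mural-like cells of set 2 had 9 of 26 genes higher and 2 lower, beside 26.5% and 17.7% of all features. *Heyl* was at 70.5 CPM against 0.187 CPM (log2 8.56) and *Hey2*, from 8 UMIs, at 11.3 CPM against 0.308 CPM (5.20), both of the same repressor family as *Hey1*, and *Rbpj* was at 48.0 CPM against 22.9 CPM (1.07).

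Across the EGFP split between 17 and 21 of these 40 genes had a ratio, and the shares of all features past 2-fold are those given above. *Maml2* was lower in EGFP-high basal-like cells of set 1 and no gene was past 2-fold in basal-like cells of set 2 or in luminal-like or proximal-like cells of set 1, and in luminal-like cells of set 2 *Hes6* was higher and *Itch* and *Dtx3* lower. Between the sets *Hes6* was past 2-fold higher in set 2 in basal-like, luminal-like, proximal-like and fibroblast-like cells. By UMIs alone, which are not set against each other as levels, the 3 genes counted most were *Psenen*, *Adam10* and *Aph1a* in luminal-like and proximal-like cells of set 1 (133, 71.9 and 65.9 CPM, and 113, 104 and 63.4 CPM). They were *Furin*, *Psenen* and *Dtx2* in basal-like cells (108, 58.2 and 48.4 CPM), *Furin*, *Psenen* and *Mfng* in endothelium-like cells (181, 129 and 96.8 CPM), *Psenen*, *Dtx3* and *Furin* in fibroblast-like cells (105, 84.7 and 76.8 CPM), and *Rbpj*, *Psenen* and *Furin* in leukocyte-like cells of set 1 (146, 118 and 100.3 CPM). In set 2 *Furin* and *Psenen* were among them in basal-like cells (84.97 and 53.7 CPM), and they were *Psenen*, *Aph1a* and *Hes6* in luminal-like cells (178, 78.2 and 70.98 CPM), *Psenen*, *Aph1a* and *Adam10* in proximal-like cells (151, 73.6 and 62.3 CPM), *Furin*, *Mfng* and *Psenen* in endothelium-like cells (167, 144 and 119 CPM), *Psenen*, *Dtx3* and *Mib1* in fibroblast-like cells (105, 64.8 and 58.2 CPM), *Furin*, *Psenen* and *Rbpj* in leukocyte-like cells (132, 124 and 122 CPM) and *Dtx3*, *Furin* and *Psenen* in mural-like cells (117, 94.5 and 91.7 CPM).

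Genes with the most similar pattern were sought over the 14 sums of 1 class in 1 set with 20 or more cells, by Pearson's r of log2(CPM + 10) among 6363 genes. These r values are descriptions over few points that share libraries and cell classes, and 20 of the 30 genes were also named with a pseudocount of 1 CPM. For *Dll4* they were *Adgrl4*, *Cyyr1* and *Robo4* (r of 0.997, 0.995 and 0.994), for *Notch4* *Gpr4*, *Dysf* and *Emcn* (0.987, 0.987 and 0.985), and for *Hey1* *Pdzd2*, *Eng* and *Chst1* (0.989, 0.982 and 0.974). For *Notch3* they were *Rgs4*, *Trpc6* and *Col10a1* (0.994, 0.993 and 0.991), and for *Notch1* *Mecom*, *Afap1l1* and *Csf3* (0.964, 0.957 and 0.952). *Nrarp* was most like *Tmem2*, *Itgb3* and *Arhgef7* (0.942, 0.940 and 0.928), *Hes1* like *Mcc*, *Nfib* and *Emp2* (0.935, 0.929 and 0.917) and *Jag2* like *Ces2e*, *AU019823* and *Pak1ip1* (0.957, 0.878 and 0.863). The likeness was lowest for *Jag1*, with *Tpm4*, *Tgfb1i1* and *Peli2* (0.862, 0.859 and 0.845), and *Notch2*, with *Runx1*, *Rnft1* and *Ccdc107* (0.859, 0.841 and 0.819).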

How the data were processed

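The authors aligned the reads of 2 10x 3′ v2 libraries with Cell Ranger 3.1.0 to mm10, per the labels and the submitters' processing notes. The deposited table of 19320 features and 15742 cells holds natural log values that the authors made from UMIs scaled to 10000 per cell and increased by 1, although it is named as counts. All values returned whole UMIs within a relative tolerance of 0.001, and no other per-sample columns were present. Cells had at least 1002 genes and at most 9.99% mitochondrial UMIs, and medians of 17235 (set 1) and 14824.5 UMIs (set 2). Barcode endings, not tissues, define the sets. Scrublet in Scanpy 1.11.5 (expected rate 6%, score limit 0.25) removed 150 and 183 cells. Its automatic limit called 0 in each set, so the limit was set by hand. Seurat 5.3.0 in R 4.3.3 integrated the sets and gave 17 clusters at resolution 0.5 from 2000 variable features, with 52 features (the members, 40 other pathway genes, EGFP and ARQ) held out. Classes were named from marker lists. UMIs were summed per class and set with Python 3.11.15, numpy 2.4.6, scipy 1.17.1 and pandas 2.3.3, and figures drawn with matplotlib 3.10.9. Exact 95% intervals (Poisson for CPM, conditional binomial for ratios) cover counting error only. With 1 library per group no test across samples was possible. The members, lists and limits were chosen with earlier results of these data known. All members are named, with other pathway genes past 2-fold in the same direction in both sets, the 3 counted most per class (1 of these is not reported here), and the 3 genes most alike to each member among genes with 50 CPM in at least 1 sum. Genes past 2-fold in only 1 comparison were named after their values were seen. The alternatives covered doublets, integration, resolution, cell weights, totals, filters, thinning, pseudocount and EGFP limits.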

Additional observations from a re-analysis of the deposited data

Results flagged for a closer look

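The barcode sets gave *Hes1* on opposite sides of luminal-like cells. The log2 ratio of basal-like over luminal-like cells was 0.45 in set 1 and −0.36 in set 2, and that of proximal-like over luminal-like cells was 0.46 in set 1 and −0.27 in set 2. *Notch1* in EGFP-high over EGFP-low luminal-like cells had a log2 ratio of 0.32 in set 1 and −0.57 in set 2, while the clusters on the 2 sides differed as described. Each set is 1 library, so these differences between the sets were not tested.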

How the results depend on the processing

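Of 1839 values recomputed under alternatives, 1389 moved by less than their counting interval or, for counts of genes, stayed within 1.5 times, 450 moved further (239 shares of cells, which follow the thinning depth, 105 ratios, 84 levels and 22 counts), and 0 called ratios turned direction. Of 43 ratios past 2-fold, 37 stayed past it under every alternative run. The 6 others are those of *Nrarp*, *Jag1* and *Hey1* named with their values beside the results.

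The following are counts of members past 2-fold. A filter of 4 UMIs only gave 9 (from 5) and 7 (from 4) for basal-like over luminal-like cells in set 1 and set 2, 5 and 4 (from 2 each) for fibroblast-like cells, 3 (from 0) for proximal-like over luminal-like cells in set 2, and, from 0, 1, 3 and 1 for the EGFP comparison in basal-like, luminal-like and proximal-like cells of set 1 and 4 in luminal-like cells of set 2. Between the sets it gave 2 (from 1) in basal-like, 1 (from 0) in luminal-like, 5 (from 3) in proximal-like and 3 (from 0) in fibroblast-like cells. Keeping doublets gave 1 (from 0) for proximal-like over luminal-like cells in set 2, and between the sets 1 (from 2) in endothelium-like and 1 (from 0) in fibroblast-like cells. Weighing every cell the same gave the same 1 and 1 between the sets. Totals without genes over 1% gave 1 (from 0) for proximal-like over luminal-like cells in set 2. Counting cluster 4 as luminal-like gave 4 (from 0) there, and between the sets 2 (from 0) in luminal-like and 1 (from 3) in proximal-like cells. The cause was not tested, except that the looser filter lets more genes in. Without integration no fibroblast-like class was named, so it gave no value. No paired analysis was possible because the sets are single libraries that share no replicate number. Leaving out a replicate was not possible for the same reason. Depth limits genes near 1 UMI per class, above all in the 43 endothelium-like cells of set 1.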
